A study of Mus musculus with 10 samples.

Results

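The vacuolar H+-ATPase (V-ATPase) is the proton pump that acidifies endosomes, lysosomes and secretory vesicles, and the 10 genes described here encode subunits of it that were chosen by symbol because several of them are alternative isoforms of the same subunit. They are *Atp6v0d1* and *Atp6v0d2* for the d subunit, *Atp6v0a1*, *Atp6v0a2* and *Tcirg1* for the a subunit, *Atp6v0c* for the proteolipid c ring, *Atp6v1a* for the catalytic A subunit, *Atp6v1b1* and *Atp6v1b2* for the B subunit, and *Atp6v1c1* for the C subunit. All 10 symbols were found, each with 1 entry, among the 25233 entries with a gene symbol of the 62322 entries in all. The 16 other genes of the pump and its accessory proteins were read beside them.

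The pump is built from a soluble V1 part, which hydrolyses ATP, and a membrane V0 part, which carries the protons. The a subunit helps to decide where the pump goes: a1 is best known from synaptic vesicles and is widely expressed, a2 is linked to the Golgi and endosomes, and a3, the product of *Tcirg1*, is linked to late endosomes and lysosomes and to the resorbing membrane of osteoclasts. The d2 and B1 isoforms have a narrow tissue distribution, d2 being known from osteoclasts, macrophages, kidney and epididymis and B1 from acid-secreting cells of the kidney and epididymis, whereas d1 and B2 are found in most tissues.

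RNA sequencing compared hypertrophied hepatic stellate cells (hypHSCs) with quiescent ones (qHSCs), in 5 libraries each, to describe how the cells differ in steatohepatitis. The hypHSCs were isolated from male C57BL/6J mice fed the CDAHFD, a high-fat diet poor in choline and methionine: libraries 1 and 2 after 13 weeks of diet at an age of 19 weeks, and libraries 3, 4 and 5 after 12 weeks at 18 weeks of age. The qHSCs came from C57BL/6J mice on a standard diet, aged 36 weeks in libraries 1, 2 and 5 and 34 weeks in libraries 3 and 4. No genetic change or drug treatment of the mice is listed for either group, but antibiotics were in the buffers used for CDAHFD livers. The cells were sorted on the fluorescence of their retinoids, in different gates for each group and after different digestion of the liver, so diet, age, digestion, antibiotics and gate cannot be told apart. The preparations were selected for RNA quality from a larger set, and which mouse gave which library was not stated, so p-values measure the spread between preparations.

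The reads assigned to genes with a symbol numbered 30534719 to 43283589 per library in hypHSCs and 35640104 to 47317028 in qHSCs. Mitochondrial entries took 2.21% to 12.8% of the reads in hypHSCs, with hypHSC 1 the highest, and 1.25% to 1.61% in qHSCs. The labelled cell type was set against marker genes. The 7 quiescent hepatic stellate cell markers reported here, *Lrat*, *Reln*, *Des*, *Ngfr*, *Hgf*, *Dcn* and *Colec10*, were lower in hypHSCs, with a median log2 fold change of -5.67 and a summed level of 20357 to 44600 normalized counts against 729698 to 1078860 in qHSCs, and *Ngfr* was at 0 in at least 1 hypHSC library. All 8 macrophage markers (*Adgre1*, *Csf1r*, *Cd68*, *Lyz2*, *Ptprc*, *Cd14*, *Fcgr1* and *Mertk*) were higher, with a median of 4.61 and a sum of 993775 to 1223330 against 4272 to 57501, and none of them was at 0 in any library. Of 5 genes of activated stellate and other mesenchymal cells, added after the values had been seen, *Vim*, which macrophages also express, was higher at 2.09 (SE 0.23). *Acta2*, *Col1a1*, *Col1a2* and *Col3a1* did not pass, at 1.72, 1.23, -0.12 and -0.60. All 5 together summed to 44512 to 90602 normalized counts against 23116 to 56169. Of this, *Vim* averaged 40046 in hypHSCs and 9254 in qHSCs. The quiescent stellate and macrophage markers thus go against the label for hypHSCs at the RNA level and the mesenchymal genes do not show this, and the name hypHSC is used below as that of the sorted population. In bulk RNA, fewer cells of a type and less RNA per cell cannot be told apart.

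Markers of other liver cells moved less evenly. Of the 5 resident Kupffer cell markers, *Vsig4* and *Cd5l* were higher and *Clec4f*, *Timd4* and *Marco* did not pass the test, and the summed level was 14397 to 26274 normalized counts in hypHSCs against 1058 to 37359 in qHSCs. All 4 neutrophil markers were higher, at sums of 1853 to 7942 against 3.75 to 384. All 3 cholangiocyte markers that were tested were higher, at sums of 436 to 2711 against 4.72 to 56.1, none of the 5 hepatocyte markers passed (10625 to 83451 against 19302 to 71457), and of 4 sinusoidal endothelial markers tested *Stab2* was higher and *Clec4g* lower (397 to 772 against 905 to 2090). The 4 T and B cell markers summed to at most 109 and 72.4, and the 1 tested did not pass. The part of these cell types in the results below was not tested, except where a value is given.

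A normalized count is the number of reads on a gene divided by the size factor of its library. Groups were compared with limma on log2(normalized count + 1) over the 14630 genes that reached 10 normalized counts in 5 or more libraries. A gene was called higher or lower when its log2 fold change was 1 or more in size and its Benjamini-Hochberg adjusted p, over all of these genes, was no more than 0.05. Of the 10 pump genes 9 were tested, since *Atp6v1b1* did not reach the minimum. Of these 9, 8 were higher in hypHSCs, none was lower, and *Atp6v0a2* did not pass, where 17.8% of all genes tested were called higher and 21.7% lower. The groups did not overlap for 7 of the 9, all higher in hypHSCs, where this held for 17.6% of all genes tested. The median log2 fold change was 2.64 for the 9, 1.31 for the 13 other pump genes tested and -0.20 for all genes tested.

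**Figure D1:**
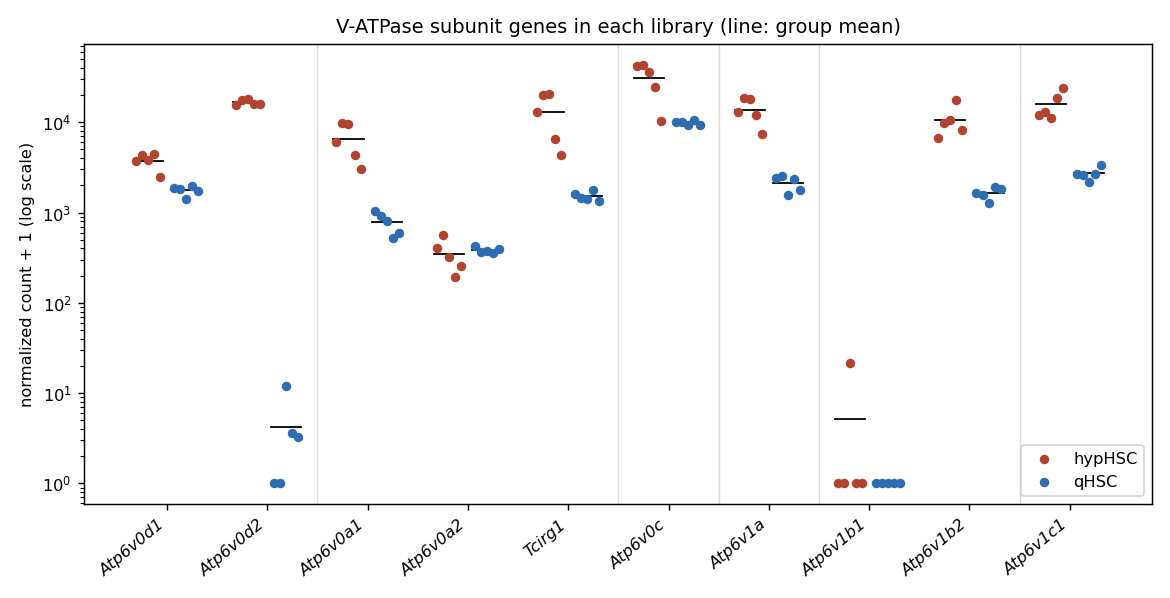
Normalized count + 1 (log axis) of each of the 10 subunit genes in every library, 1 point per library, hypHSC in red and qHSC in blue, with a line at the group mean. *Atp6v0d2* lies at 15616 or more in all 5 hypHSC libraries and at or below 11.02 in all 5 qHSC libraries, the *Atp6v0a2* points overlap, and *Atp6v1b1* is at 0 in 9 of 10 libraries.

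Promoter stretches are shown because pump genes are known to share short binding motifs of the MiT/TFE transcription factors, which control lysosomal genes, and because so many pump genes were higher together. The 250 bases before each start site in the RefSeq promoter table (table build GRCm38.p6) were searched on both strands, and positions are those of the exact match of each stretch to GRCm39. Of the 26 pump genes 19 had a promoter in the table, with 24 start sites, including 6 of the 10 isoform genes. Entries for *Atp6v0d2*, *Atp6v0a2*, *Atp6v1b2* and *Atp6v1c1* were not matched. A start here is that of a RefSeq transcript and can lie inside the deposited entry of the gene. This is so for the stretches of *Atp6v0a1* (entry chr11:100900267-100954541) and *Atp6v0c* (entry chr17:24382839-24388652). Each line gives 30 bases around a match, 5′ to 3′ on the strand of the gene, with the motif in capitals.
Atp6v1a, palindromic E-box, 132 bases before the start, chr16:43959736-43959765, minus strand: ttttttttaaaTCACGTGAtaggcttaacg
Atp6v0c, M-box, 17 bases before the start, chr17:24388425-24388454, minus strand: gggcggggacagaTCATGTGAcgcgagcgc
Atp6v0a1, AP-1, 111 bases before the start, chr11:100901101-100901130, plus strand: agcttatgtgggTGATTCAtattcttaagt
Atp6v0b, E-box core, 36 bases before the start, chr4:117744545-117744574, minus strand: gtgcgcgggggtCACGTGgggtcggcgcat
Atp6v0b, E-box core, 18 bases before the start, chr4:117744527-117744556, minus strand: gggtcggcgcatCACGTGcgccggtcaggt

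The E-box core CACGTG was in 2 of the 24 pump promoters, those of *Atp6v1a* and *Atp6v0b*, and in 6.02% of all 32851 promoters of the table. Its longer palindrome TCACGTGA, which contains the core, was in 1 of the 24, that of *Atp6v1a*, and in 0.785% of all promoters. The M-box TCATGTGA was in 1 of the 24, a promoter of *Atp6v0c*, and in 0.846%. The pattern TGANTCA, labelled AP-1 above, is a loose form of that motif in which N is any base. It was in 1, that of *Atp6v0a1*, where N is T, and in 6.75% of all promoters. The ETS motif GAGGAAGT of the PU.1 type was in none of the 24 and in 2.44% of all. A match describes these letters only, and 15 of the 19 genes held none of the motifs in this window.

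The d subunit sits on the c ring and joins it to the central stalk. *Atp6v0d2* (GSMG0037813, mm39 chr4:19876838-19922606) encodes its narrowly expressed isoform. It was at 15616, 17746, 17973, 16116 and 15802 normalized counts in hypHSC 1 to 5, and at 0, 0, 11.02, 2.57 and 2.25 in qHSC 1 to 5. The qHSC values rest on 0, 0, 14, 3 and 3 reads, of which all but that of qHSC 3 are at or under the floor of 3 reads used here, and this floor covers counting error only. The lowest hypHSC library was 1417 times the highest qHSC library, so the groups lay far apart. The log2 fold change was 12.60 (SE 0.60, limma adjusted p = 9.95e-08), and it was the highest of the 14630 genes tested in this fit. Because qHSCs were near 0, this figure depends on the constant added before the logarithm, and it ran from 11.14 to 13.14 over the alternatives tried.

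The ubiquitous isoform *Atp6v0d1* (GSMG0055550, chr8:106251093-106292696) was at 3677, 4353, 3818, 4446 and 2446 normalized counts in hypHSC 1 to 5, and at 1867, 1821, 1426, 1948 and 1748 in qHSC 1 to 5. The lowest hypHSC library, hypHSC 5, was above the highest qHSC library. The log2 fold change was 1.07 (SE 0.19, limma adjusted p = 0.000738), just past the threshold of 1. The call was lost without hypHSC 4, at 0.997, without qHSC 3, at 0.992, and with the 12-week hypHSCs alone, at 0.983.

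*Atp6v0d2* was therefore near absent where *Atp6v0d1* was present, and above it where both were present. Levels of different genes were compared as normalized counts per kilobase of exon. On this scale *Atp6v0d2* made up 88.2% ± 2.14 of the d subunit transcripts in hypHSCs (SD, n = 5; 85.8% to 91.5%) and 0.341% ± 0.532 in qHSCs (0% to 1.27%). The summed d level was 6927 ± 512 in hypHSCs and 388 ± 42.8 in qHSCs, a ratio of means of 17.8. The log2 ratio of *Atp6v0d2* to *Atp6v0d1* in normalized counts was 2.09, 2.03, 2.23, 1.86 and 2.69 in hypHSC 1 to 5, and -10.87, -10.83, -6.89, -9.09 and -9.07 in qHSC 1 to 5. It differed by 11.53 (SE 0.745, exact two-sided permutation p = 0.00794, adjusted over 4 ratios 0.0159), where 0.00794 is the smallest p that 5 against 5 libraries allow. Gene length cancels in this difference, as does the scaling of the libraries but for the constant added.

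**Figure D2:**
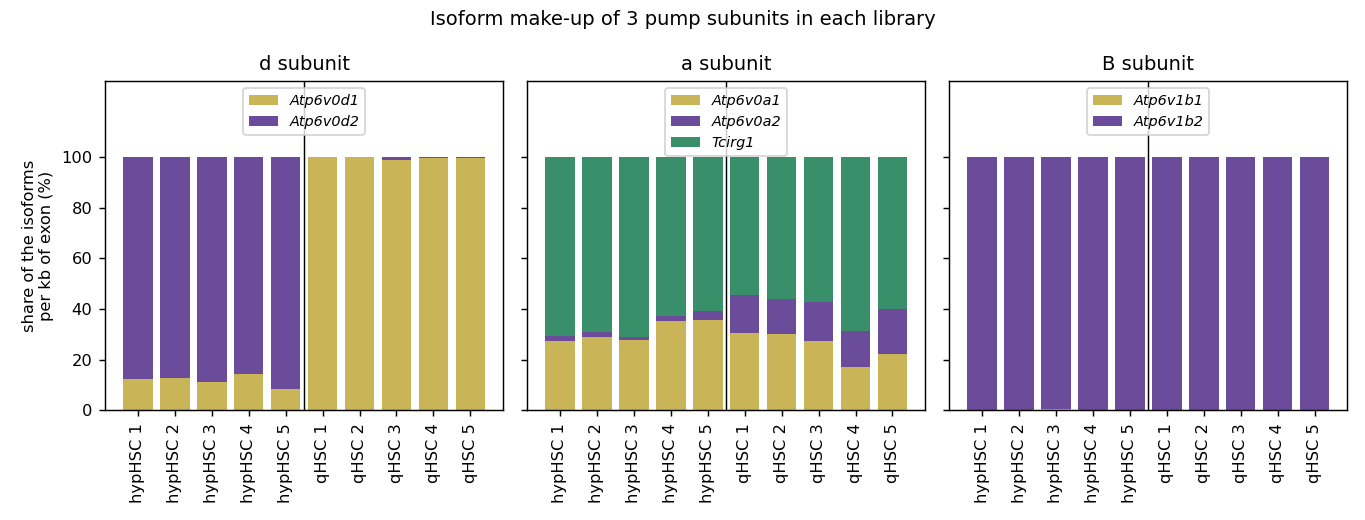
Share (%) of each isoform in the d, a and B subunits in every library, from normalized counts per kilobase of exon, with 1 stacked bar per library. The bars of the a subunit hold *Atp6v0a1*, *Atp6v0a2* and *Tcirg1* only. *Atp6v0d2* takes 85.8% to 91.5% of the d transcripts in hypHSCs and at most 1.27% in qHSCs, *Atp6v0a2* takes 1.14% to 3.63% of the a transcripts in hypHSCs and 14.2% to 18.0% in qHSCs, and *Atp6v1b2* takes nearly all B transcripts.

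The a subunit forms the channels through which protons enter and leave the ring. *Tcirg1* (GSMG0027964, chr19:3946052-3957133), which encodes a3, was at 13162, 20072, 20822, 6499 and 4347 normalized counts in hypHSC 1 to 5, and at 1594, 1459, 1423, 1765 and 1351 in qHSC 1 to 5. All hypHSC libraries lay above all qHSC libraries, with hypHSC 2 and 3 high and hypHSC 4 and 5 low among hypHSCs. *Tcirg1* rose by 2.85 on the log2 scale (SE 0.40, limma adjusted p = 0.000155). Of the 59-base stretches of its exons 4.83% are also found in other genes, and 4.01% of its exon bases also belong to *Gm59160*. A small part of its reads may therefore be those of other genes.

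*Atp6v0a1* (GSMG0008183, chr11:100900267-100954541), the a1 gene, was at 6018, 9929, 9562, 4322 and 2999 normalized counts in hypHSC 1 to 5, and at 1049, 924, 804, 524 and 589 in qHSC 1 to 5. The groups did not overlap, and the same hypHSC libraries as for *Tcirg1* were high and low. *Atp6v0a1* rose by 2.98 on the log2 scale (SE 0.34, limma adjusted p = 3.94e-05).

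*Atp6v0a2* (GSMG0041130, chr5:124767117-124801518), the a2 gene, was at 400, 563, 323, 193 and 253 normalized counts in hypHSC 1 to 5, and at 426, 360, 379, 357 and 396 in qHSC 1 to 5. Here the qHSC libraries lay inside the range of the hypHSC libraries. The log2 fold change was -0.24 (SE 0.28, limma adjusted p = 0.509, exact two-sided permutation p = 0.397), which was within the spread between libraries. Of its exon bases 16.3% also belong to another gene, *4930404A12Rik*, and these libraries keep no strand, so some of its reads may be those of that gene.

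Within the a subunit, *Tcirg1* was the most abundant isoform per kilobase in every library of both groups. It made up 66.9% ± 4.74 of a transcripts in hypHSCs and 59.3% ± 5.58 in qHSCs, and *Atp6v0a1* made up 30.9% ± 4.13 and 25.3% ± 5.64. *Atp6v0a2* made up 2.17% ± 0.909 and 15.4% ± 1.58 (SD, n = 5 each). The a transcripts here are those of these 3 genes only. *Atp6v0a4*, another a isoform gene, was not counted and was at 4.16 ± 4.02 normalized counts per kilobase in hypHSCs and 6.89 ± 1.69 in qHSCs. The summed a level was 2657 ± 1444 in hypHSCs and 362 ± 33.6 in qHSCs, a ratio of means of 7.35.

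Of the a ratios, that of a3 to a1 overlapped between groups and that of a3 to a2 did not. The log2 ratio of *Tcirg1* to *Atp6v0a1* in normalized counts was 1.13, 1.02, 1.12, 0.59 and 0.54 in hypHSC 1 to 5, and 0.60, 0.66, 0.82, 1.75 and 1.20 in qHSC 1 to 5. The ranges overlapped, and the difference of -0.13 (SE 0.25) did not pass the test (exact two-sided permutation p = 0.659, adjusted 0.659). The log2 ratio of *Tcirg1* to *Atp6v0a2* was 5.04, 5.15, 6.00, 5.07 and 4.10 in hypHSC 1 to 5, and 1.90, 2.01, 1.91, 2.30 and 1.77 in qHSC 1 to 5. Here every hypHSC library was above every qHSC library, by 3.09 on average (SE 0.315, exact two-sided permutation p = 0.00794, adjusted 0.0159).

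The c ring turns in the membrane as the protons pass. *Atp6v0c* (GSMG0044090, chr17:24382839-24388652) was at 42075, 43199, 35670, 24831 and 10400 normalized counts in hypHSC 1 to 5, and at 10113, 10021, 9226, 10599 and 9374 in qHSC 1 to 5. Of the hypHSC libraries 4 lay above all qHSC libraries, and hypHSC 5 lay below qHSC 4. *Atp6v0c* rose by 1.499 on the log2 scale (SE 0.35, limma adjusted p = 0.00429, exact two-sided permutation p = 0.0159). Of the 59-base stretches of its exons, the read length, 5.38% are also found in its pseudogenes *Atp6v0c-ps1* and *Atp6v0c-ps2*, so a small part of its reads could not be assigned with certainty.

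In the V1 part, the A subunit holds the catalytic ATP site. *Atp6v1a* (GSMG0021714, chr16:43905767-43959622) was at 12908, 18521, 18154, 12161 and 7336 normalized counts in hypHSC 1 to 5, and at 2415, 2570, 1553, 2333 and 1760 in qHSC 1 to 5. The groups did not overlap, and hypHSC 5 was again the lowest of its group. *Atp6v1a* rose by 2.65 on the log2 scale (SE 0.26, limma adjusted p = 1.36e-05).

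The B subunit alternates with A in the hexamer of V1. *Atp6v1b2* (GSMG0053429, chr8:69541358-69566370), the ubiquitous B2 gene, was at 6743, 9932, 10497, 17874 and 8270 normalized counts in hypHSC 1 to 5, and at 1652, 1545, 1264, 1895 and 1825 in qHSC 1 to 5. The groups did not overlap, and the highest hypHSC library was hypHSC 4, which was low for *Tcirg1* and *Atp6v0a1*. *Atp6v1b2* rose by 2.64 on the log2 scale (SE 0.24, limma adjusted p = 8.38e-06).

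*Atp6v1b1* (GSMG0044594, chr6:83719970-83735835), the renal and epididymal B1 gene, was at 0 in 9 of the 10 libraries and at 20.8 normalized counts, or 25 reads, in hypHSC 3. A count of 0 allows up to 3 reads, which is 2.25 to 2.72 normalized counts in the qHSC libraries. It therefore made up 0.302% of B transcripts per kilobase in hypHSC 3 and 0% in the other libraries. The log2 ratio of *Atp6v1b1* to *Atp6v1b2* averaged -12.41 and -10.66, a difference of -1.75 (SE 0.91, exact two-sided permutation p = 0.0556, adjusted 0.0741), but with B1 at 0 in 9 libraries this ratio reflects the level of B2. The summed B level was 1592 ± 640 in hypHSCs and 244 ± 37.3 in qHSCs, a ratio of means of 6.52. None of 4 genes of acid-secreting renal cells, *Foxi1*, *Slc4a1*, *Slc26a4* and *Slc4a9*, reached the minimum for the test, and none was above 9.15 normalized counts in any library.

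The C subunit links V1 to V0 and is released when the pump comes apart. *Atp6v1c1* (GSMG0018007, chr15:38662148-38692687) was at 12114, 12887, 11280, 18485 and 23989 normalized counts in hypHSC 1 to 5, and at 2684, 2608, 2205, 2704 and 3373 in qHSC 1 to 5. The groups did not overlap, and hypHSC 5, the lowest library for 5 of the 9 genes, was the highest here. *Atp6v1c1* rose by 2.49 on the log2 scale (SE 0.22, limma adjusted p = 6.96e-06).

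The spread among the 5 hypHSC libraries differed from gene to gene. *Atp6v0d2* had a coefficient of variation of 6.73% in hypHSCs, and its highest library was 1.15 times its lowest. The coefficient was 21.3% for *Atp6v0d1* and 33.7% to 58.2% for the other 7 genes tested, with *Tcirg1* the highest at a ratio of 4.79 between libraries. A low spread was not seen in *Atp6v0d2* alone. For the other pump genes called higher the coefficient ran from 9.89% (*Atp6v1e1*) to 40.1% (*Atp6v1g1*). For the transcription factor gene *Tfec* it was 6.44%. *Atp6v0a1*, *Tcirg1*, *Atp6v1a* and *Atp6v0c* were all lowest in hypHSC 5, whereas *Atp6v1c1* was highest there. Of the 9 genes 4 were highest in hypHSC 2. The macrophage markers summed to 1090570, 1223330, 1047510, 1157070 and 993775 normalized counts in hypHSC 1 to 5. This sum was also highest in hypHSC 2 and lowest in hypHSC 5. Most of it was *Lyz2*, which averaged 845672 normalized counts with a coefficient of variation of 9.07%. For the other macrophage markers the coefficient was 15.3% (*Mertk*) to 74.9% (*Csf1r*), so the sum does not show how each of them varied. The part of these markers in the spread was not tested.

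Of the 9 genes, 2 had hypHSC libraries that separated by weeks of diet. *Atp6v0c* was at 42075 and 43199 normalized counts after 13 weeks and at 10400 to 35670 after 12 weeks. *Atp6v0a2* was at 400 and 563 after 13 weeks and at 193 to 323 after 12 weeks. For the other 7 genes tested the values at 12 and 13 weeks overlapped. With 2 libraries against 3 no test was made. The share of all genes that separate in this way was not computed, so the count is not read as a result about these genes. The 13-week libraries also came from mice aged 19 weeks, against 18 weeks. Their mitochondrial share was 12.8% and 7.27% of reads, against 2.21% to 3.42% at 12 weeks. Weeks of diet, age and this share cannot be told apart here.

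**Figure D3:**
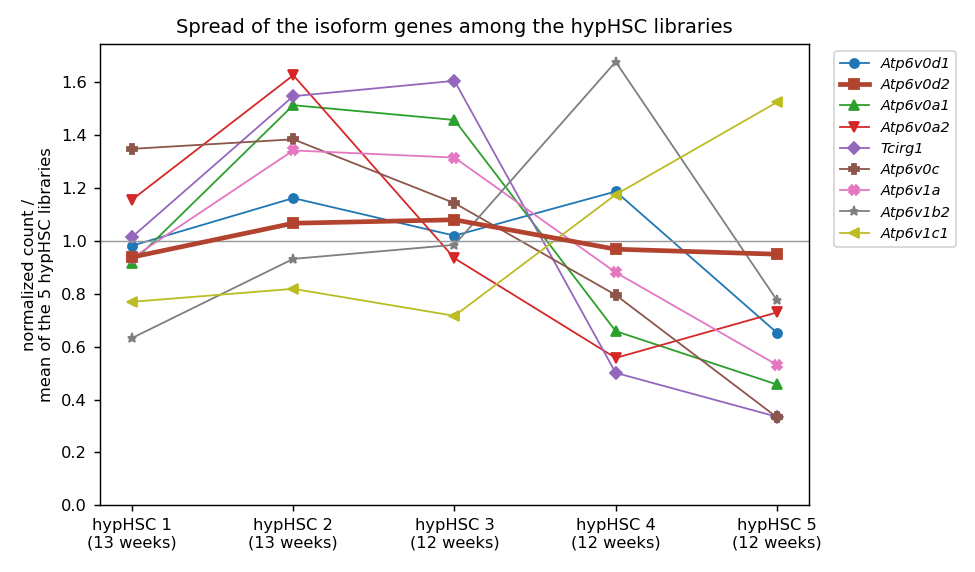
Normalized count of 9 subunit genes in each hypHSC library, divided by the gene's mean over the 5 hypHSC libraries, with lines that join the points of a gene and imply no order. *Atp6v0d2* (thick line) stays between 0.938 and 1.08 of its mean, whereas *Tcirg1* runs from 0.335 to 1.60 and *Atp6v1c1* reaches 1.52 in hypHSC 5, where most of the others are low.

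Among qHSCs, *Tcirg1* was highest in qHSC 4 and qHSC 1, the libraries with the highest macrophage marker sums of their group, at 57501 and 25827 normalized counts against 4272 to 7411 in the other 3. *Atp6v0d2* did not follow these sums, with 3 reads in qHSC 4, none in qHSC 1 and its 14 reads in qHSC 3. With qHSC 1 and 4 left out, the number of genes called higher was again 8 of 9, and the log2 fold changes were 12.26 for *Atp6v0d2*, 2.95 for *Tcirg1* and 1.15 for *Atp6v0d1*. This alternative was chosen after the data had been seen.

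The fold changes depend on how the libraries are put on a common scale. Scaled to equal totals the median of all genes tested was -0.55 in place of -0.20, and *Atp6v0d1* was at 0.71 and no longer called. Scaled to 3 reference genes, *Hprt*, *Pgk1* and *Actb*, the median was -1.13, 6 of the 9 genes were higher, *Atp6v0c* was at 0.56, *Atp6v0d1* at 0.13, and *Atp6v0a2* was called lower at -1.18, while of the other pump genes 1 was then higher and 4 were lower. Relative to the median of all genes, *Atp6v0d1* was at 1.25 to 1.27, *Atp6v0c* at 1.69 to 1.70 and *Atp6v0a2* at -0.05 to -0.04 under all 5 scalings. A scaling shifts all genes by nearly the same amount, so this sameness follows from the arithmetic and is no test of the calls.

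The 10 genes were then placed among the 26 genes of the pump by their level per kilobase of exon. In hypHSCs *Atp6v0d2* ranked 5 at 6104 ± 411, next to *Atp6v0c* at 6072 ± 2672, from which it did not differ beyond the spread, and in qHSCs it ranked 22 at 1.16 ± 1.67. Next among the 10 genes came *Tcirg1* at 1827 ± 1064, *Atp6v1b2* at 1591 ± 640, *Atp6v1c1* at 1369 ± 469 and *Atp6v1a* at 1112 ± 374, neighbours that all lay within each other's spread. *Atp6v0d1* at 824 ± 176 and *Atp6v0a1* at 780 ± 368 came next and did not differ beyond their spread, and *Atp6v0a2* was far lower at 50.04 ± 20.8.

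In qHSCs *Atp6v0c* led the 10 genes and *Atp6v0d1* came second. *Atp6v0c* was at 1918 ± 110, *Atp6v0d1* at 387 ± 44.2, *Atp6v1b2* at 244 ± 37.3, *Atp6v1c1* at 236 ± 36.5, *Tcirg1* at 214 ± 23.1, *Atp6v1a* at 171 ± 35.7, *Atp6v0a1* at 92.4 ± 26.3 and *Atp6v0a2* at 55.4 ± 4.13 normalized counts per kilobase. From *Atp6v1b2* to *Tcirg1* neighbours lay within the spread. The oligo-dT priming and amplification of these libraries may weigh genes unequally, so levels per kilobase are approximate.

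Of the 16 other pump genes 13 were tested, and 7 were higher and none lower, against 17.8% and 21.7% of all genes tested. These 7 did not overlap between groups, where this held, higher in hypHSCs, for 17.6% of all genes tested. In V1 they were *Atp6v1d*, of the central stalk, at a log2 fold change of 1.55 (SE 0.20), *Atp6v1e1*, of the outer stalks, at 1.61 (SE 0.13), *Atp6v1f* at 1.31 (SE 0.19) and *Atp6v1g1*, the partner of E, at 1.59 (SE 0.27). In V0 they were *Atp6v0b*, a ring subunit, at 2.01 (SE 0.19) and *Atp6v0e* at 1.92 (SE 0.22), and *Atp6ap2*, the accessory protein also known as the prorenin receptor, was at 1.53 (SE 0.16). All of these lay between *Atp6v0d1* and *Atp6v1c1* in size. Of all 26 pump genes, 22 were tested, 15 were higher and none lower, with a median log2 fold change of 1.54.

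The 6 other pump genes tested that did not pass included the accessory protein *Atp6ap1*, which averaged 22629 ± 8729 normalized counts in hypHSCs against 19638 ± 3272 in qHSCs, at a log2 fold change of 0.10 (SE 0.33). The regulatory subunit gene *Atp6v1h* was at 0.56 (SE 0.35). The minor isoform genes *Atp6v1c2*, *Atp6v1g2* and *Atp6v0e2* were at -0.55, -1.11 and -2.83 with limma adjusted p of 0.316, 0.0591 and 0.0873, and *Atp6v0a4*, the renal a isoform, whose entry also carries the symbol *D630045J12Rik*, was at -2.04 with 0.164. The highest mean of these 4 in either group was 201 normalized counts, that of *Atp6v0e2* in qHSCs. *Atp6v1g2* was called lower without hypHSC 4 or hypHSC 5, at -1.28 and -1.33, and *Atp6v0e2* without hypHSC 1, at -3.75. The values of *Atp6v0e2* and *Atp6v0a4* rest on hypHSC libraries at or near 0: with DESeq2 they were -1.01 and -0.72 and with edgeR -1.01 and -0.66, and *Atp6v0e2* was at -1.63 without hypHSC 4. The testis isoform gene *Atp6v1e2* was at 0 in all libraries but hypHSC 2, where it was at 18.6, and *Atp6v1g3* and *Atp6ap1l* were at 0 in all 10.

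**Figure D4:**
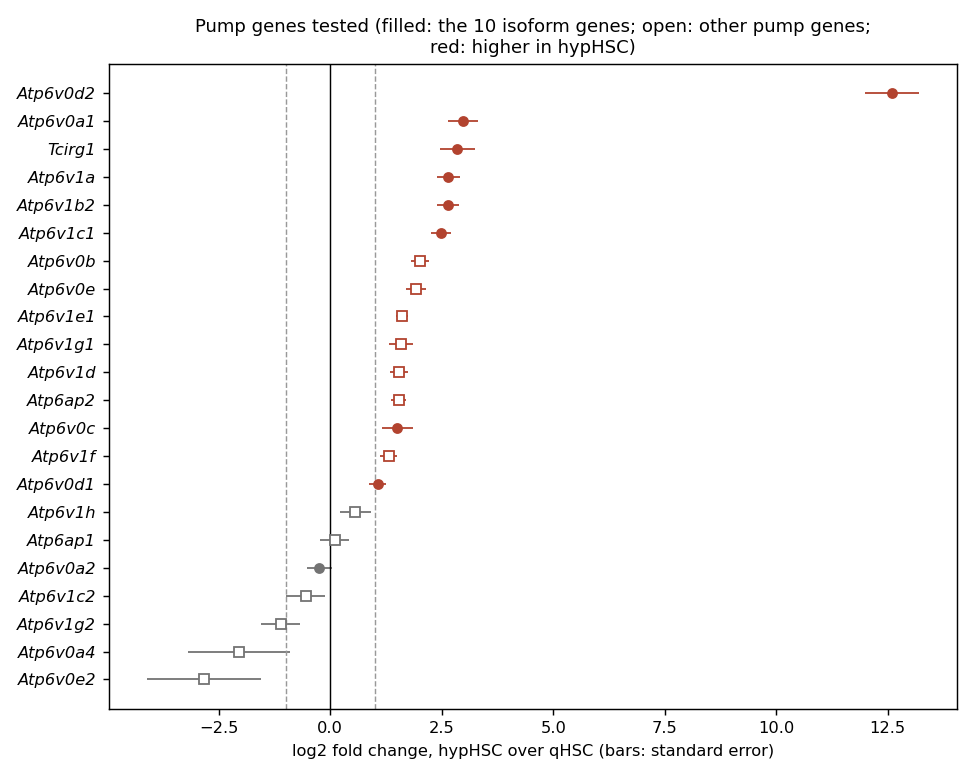
Log2 fold change (hypHSC over qHSC) of the 22 pump genes tested, with bars of 1 limma standard error, filled circles for the isoform genes and open squares for the other pump genes, red where called higher and grey where not called. *Atp6v0d2* stands at 12.60, the other genes called higher lie between 1.07 and 2.98, and none was called lower.

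Of 14 genes that assemble or regulate the pump 13 were tested, and 3 were higher and 2 lower, where 17.8% of all genes tested were higher and 21.7% lower, so these shares are near the background. Their median log2 fold change was 0.30. The genes higher were *Dmxl2*, of the complex that joins V1 to V0, at 2.36 (SE 0.53), *Rilp*, a lysosomal adaptor that binds the pump, at 2.06 (SE 0.50), and *Rnasek*, a pump partner, at 1.006 (SE 0.16). The genes lower were the TLDc-domain genes *Ncoa7*, at -1.43 (SE 0.19), and *Oxr1*, at -1.66 (SE 0.14), whose products bind V1. *Ccdc115*, a V0 assembly factor, at 0.68 and *Dmxl1* at 0.97 had an adjusted p under 0.05 but missed the fold threshold, and *Vma21*, another V0 assembly factor, was at 0.09 (SE 0.14).

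Of the 5 genes of the Ragulator, the scaffold that ties the pump to mTORC1 on the lysosome, 4 were higher: *Lamtor1* at 1.04, *Lamtor2* at 1.37, *Lamtor4* at 1.98 and *Lamtor5* at 1.21. *Lamtor3* was at 0.77 with an adjusted p under 0.05, and the median was 1.21. All 4 MiT/TFE transcription factor genes were higher, *Tfeb* at 3.01 (SE 0.55), *Tfe3* at 1.21 (SE 0.31), *Mitf* at 3.75 (SE 0.81) and *Tfec* at 4.86 (SE 0.85), with a median of 3.38. *Tfec* averaged 394 ± 25.3 normalized counts in hypHSCs against 28.2 ± 35.7 in qHSCs, whereas *Tfeb* averaged 606 ± 345 against 58.6 ± 7.34. Beside both lists, 17.8% of all genes tested were higher and 21.7% lower.

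Because *Atp6v0d2* and *Tcirg1* are known from osteoclasts, 16 other genes of osteoclast acid secretion were read. Of the 12 tested 9 were higher, 1 was lower and the median was 2.42, where 17.8% of all genes tested were higher and 21.7% lower. The chloride-proton exchanger gene *Clcn7* was at 1.37 (SE 0.47) and its partner *Ostm1* at 1.35 (SE 0.43), the carbonic anhydrase gene *Car2* at 2.88 (SE 0.88), and the trafficking genes *Snx10* and *Plekhm1* at 3.35 (SE 0.34) and 2.21 (SE 0.39). The acid phosphatase gene *Acp5* was at 5.03 (SE 0.51), the protease gene *Ctsk* at 2.63 (SE 0.33) and the receptor gene *Tnfrsf11a* at 6.01 (SE 0.57).

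*Dcstamp*, a cell fusion gene, averaged 684 ± 148 normalized counts in hypHSCs and was at 0 in all qHSC libraries. The integrin gene *Itgb3* was lower, at 7.41 ± 7.70 against 337 ± 239 normalized counts. *Nfatc1*, the osteoclast transcription factor gene, was at 99.7 ± 106 and 65.0 ± 36.0 and did not pass, nor did *Rab7* at a log2 fold change of 0.26 (SE 0.15). *Mmp9*, *Ocstamp*, *Calcr* and *Oscar* did not reach the minimum for the test. The sums of the macrophage markers given above moved between the groups together with these lists, and their part in them was not tested.

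The genes most like *Atp6v0d2* and *Tcirg1* were sought among the 10792 tested genes whose mean over the libraries reached 100 normalized counts, by the root mean square difference of their centred log2 values over the 10 libraries, which is a description and mostly reflects the step between the groups. For *Atp6v0d2* they were *Mmp12* (0.852), *Gpnmb* (1.14), *Syngr1* (1.16), *Npy* (1.19) and *Il7r* (1.29). Among these, *Syngr1* and *Npy* were at 0 in all qHSC libraries, while *Mmp12* was at 29.0 to 239 normalized counts there. For *Tcirg1* they were *Slc37a2* (0.273), *Pgd* (0.281), *Dnase2a* (0.301), *Ctsk* (0.309) and *Slc6a6* (0.310), with log2 fold changes of 2.57 to 2.96.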

How the data were processed

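RNA was reverse-transcribed from its poly(A) tail, amplified and sequenced as 59-base paired reads without strand, in 10 libraries. The authors mapped the reads to mm39 with STAR and counted them per gene with featureCounts (Subread 1.5.0, FAST DB annotation). The deposited signal is the count divided by the DESeq2 size factor of the library. Dividing each column by the value of 1 read gave whole reads for 100% of values (tolerance 0.02 of a read), which gave the depths. Sizes and gene coordinates are as in the deposited table. Entries without a symbol were left out of the main test.

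Genes that reached 10 normalized counts in 5 or more libraries were tested with limma 3.58.1 (intensity trend) in R 4.3.3 on log2(value + 1), hypHSC against qHSC, with Benjamini-Hochberg adjustment. Isoform ratios were compared per library by exact two-sided permutation over 252 arrangements. Exon lengths were taken from GENCODE on GRCm39. Alternatives were other pseudocounts, filters, scalings, all entries, DESeq2 1.42.0 and edgeR 4.0.16 on recovered reads, the replicate number as a block, 12-week hypHSCs only, libraries left out, and other length corrections. The limma step was tested on simulated data. Genes named are the 10 genes, those of the lists, and the 5 closest profiles of *Atp6v0d2* and *Tcirg1*. The genes, lists and markers were chosen with earlier results of these data known, and 1 marker gene is not reported here.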

Additional observations from a re-analysis of the deposited data

Results flagged for a closer look

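In 25 groups of 5 libraries, a library far from the others of its group was looked for. The groups hold the level of each of the 10 genes and 3 isoform ratios in hypHSCs or qHSCs. Chance gives such a library in about 1 group of 20 when values are normally distributed. Such a library was found in 2 groups. *Atp6v0d2* was at 11.02 normalized counts in qHSC 3, and its distance to the next qHSC library was 0.767 of the range of that group. *Atp6v1b1* was at 20.8 in hypHSC 3, where the other 4 hypHSC libraries were at 0. Both values rest on few reads, in groups otherwise at or near 0, where this chance rate need not hold.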

How the results depend on the processing

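Of 216 values of the 9 tested genes under the alternatives, 209 kept their direction and side of the threshold, 6 lost the call, 1 gained it and none reversed. Scaled to 3 reference genes, 1 of the 9 was lower, 1 of the other pump genes was higher and 4 lower, and 1472 of all genes were higher and 7020 lower, where the median of all genes was -1.13. With all entries included, which tests more features, 3911 were higher and 5380 lower. Of the other pump genes 1 was lower, where none was in the main test, with a pseudocount of 5, equal totals, DESeq2, the replicate block or 12-week hypHSCs only, and 0 to 1 with a library left out, the gene being *Atp6v1g2* or *Atp6v0e2*. *Atp6v1h* reversed to -0.37 with 3 reference genes, and *Atp6ap1* to -0.84 there, to -0.26 with equal totals and to -0.21 with 12-week hypHSCs, while it ran from -0.036 to 0.416 with a library left out. The cause was not tested.

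The log2 ratio of *Atp6v0d2* to *Atp6v0d1* was 11.53 and that of *Tcirg1* to *Atp6v0a2* 3.09 with the replicate number as a block, both at an adjusted p of 0.125 by exact permutation, since 5 pairs allow no p below 0.0625. They were 11.61 and 3.08 with 12-week hypHSCs only and 11.11 and 3.18 without qHSC 1 and 4, at an adjusted p of 0.0714 by exact permutation over fewer libraries. No sign was seen that the numbers pair the libraries. The correlation of same-numbered libraries was 0.008 to 0.129, and only those numbered 5 correlated best with their own number. Low correlations cannot exclude a pairing. The ratio of *Atp6v1b1* to *Atp6v1b2* passed with a pseudocount of 5, at -2.16, and without hypHSC 3, at -2.62, and ran up to -1.32 with another library left out. The ratio of *Tcirg1* to *Atp6v0a1* ran from -0.229 to 0.058 with a library left out, reversing without qHSC 4, and was lowest over all alternatives, at -0.258, with 12-week hypHSCs only. Per longest transcript *Tcirg1* made up 56.4% of a transcripts in hypHSCs and 51.5% in qHSCs and *Atp6v0a2* 13.4% in qHSCs, and without length correction *Atp6v0d2* made up 81.7% of d reads in hypHSCs.

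At this depth *Atp6v1b1* and, in qHSCs, *Atp6v0d2* had few or no reads, with only the 25 reads of hypHSC 3 and the 14 of qHSC 3 above the floor. Whether counting or the spread between preparations limits each gene was not tested.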
